A study of Rattus norvegicus with 6 samples.

Results

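The 10 genes described here are core members of the BCL2 family of cell death regulators, namely Bcl2, Bcl2l1, Mcl1, Bax, Bak1, Bad, Bid, Bcl2l11, Pmaip1 and Bbc3. They were chosen by name, for their place in the mitochondrial pathway of apoptosis, with earlier results of these data known. Each of the 10 had 1 row among the 17048 gene rows of the count tables, 8 had a count in at least 1 library, and 6 passed the filter on low counts and were tested. RNA was sequenced from 6 libraries of neural stem/progenitor cells (NSPCs), labelled WT, which the study took from the telencephalon of Sprague-Dawley rat embryos and used as primary cells of low passage. The cells were cultured for 24 h in medium that maintains stemness, on carbon films of carbon nanotube and graphene oxide nanofiber whose electrical conductivity was High, Medium or Low, with 2 libraries for each film. The comparisons asked whether the RNA of these genes differed between the films, and no library of cells grown off the films was analysed here. The study set conductivity by the time of oxidation, and adjusted a poly-D-lysine coat by film to even out bound laminin. In its adhesion assays the stated poly-D-lysine concentration was the same for High and Low and lower for Medium. Its methods for the RNA libraries do not restate the coat. Conductivity and oxidation cannot be told apart in these comparisons, nor can the coat in those that include Medium. Whether the coat was equal on High and Low in the RNA cultures is not stated. The 3 films were compared in pairs, and a pooled contrast set the average of the Low and Medium films against High.

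BCL2 family proteins meet at the outer membrane of the mitochondrion and decide whether it is opened. Pro-survival members (BCL2, BCL-XL from Bcl2l1, MCL1) hold the effectors BAX and BAK in check, while BH3-only members (BAD, BID, BIM from Bcl2l11, NOXA from Pmaip1, PUMA from Bbc3) bind the pro-survival members or activate the effectors. Once BAX or BAK forms pores, cytochrome c leaves the mitochondrion and caspases are activated. In the developing brain this pathway removes progenitor cells and young neurons, and MCL1 and BCL-XL are known to keep neural progenitors and neurons alive. Much of the control of the family lies in protein binding, phosphorylation and breakdown, which RNA counts do not measure.

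The sequences upstream of the 3 pro-survival genes are shown because Mcl1 and Bcl2l1 were counted in all 6 libraries and Bcl2 in none. Windows of 250 bases before an annotated transcription start were taken from RefSeq on the GRCr8 build, which is not the rn6 build of the submitters' processing notes, so the coordinates belong to RefSeq and not to the count tables. RefSeq windows were matched for 8 of the 10 members, 11 windows in all, and those of Bax and Bbc3 were not used here. Capitals mark CCGGAAG on either strand, a core of ETS factor binding motifs, which was chosen for display after the windows were read.
Mcl1, chr2:185907918-185908167, plus strand: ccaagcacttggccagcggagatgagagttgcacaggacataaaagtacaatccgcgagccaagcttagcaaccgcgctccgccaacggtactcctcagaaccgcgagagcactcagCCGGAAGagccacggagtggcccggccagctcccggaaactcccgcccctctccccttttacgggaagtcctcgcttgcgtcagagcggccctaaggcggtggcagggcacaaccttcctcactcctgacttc
Bcl2l1, window of the outermost start, chr3:161764776-161765025, minus strand: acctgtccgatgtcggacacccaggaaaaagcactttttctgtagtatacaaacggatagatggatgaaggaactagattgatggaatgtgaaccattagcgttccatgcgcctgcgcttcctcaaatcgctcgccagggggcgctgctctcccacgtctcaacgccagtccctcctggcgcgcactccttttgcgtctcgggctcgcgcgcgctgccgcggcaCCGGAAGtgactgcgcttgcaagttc
Bcl2, chr13:23366901-23367150, minus strand: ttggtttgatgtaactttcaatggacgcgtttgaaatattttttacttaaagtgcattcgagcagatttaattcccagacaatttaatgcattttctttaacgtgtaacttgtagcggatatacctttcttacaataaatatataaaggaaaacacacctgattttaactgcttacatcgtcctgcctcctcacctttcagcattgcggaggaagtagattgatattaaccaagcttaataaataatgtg
The GC content was 62% in the Mcl1 window, 57.6% in the Bcl2l1 window and 33.6% in the Bcl2 window. CCGGAAG began 133 bases before the start in Mcl1 and 26 bases before it in Bcl2l1, and it was not found in the Bcl2 window. It was in 4 of the 11 member windows, beside 7.27% of all 33469 RefSeq windows of the same length. The other two were a window of another Bcl2l1 start, 195 bases before it on the opposite strand, and the window of Bcl2l11, which had no count. The letters TATAAA were in 1 of the 11 windows, 109 bases before the start of Bcl2, beside 12.9% of all windows. GGGCGG, the core of the GC box, was in 5 of the 11 member windows and in 30.5% of all windows, with each motif searched on both strands. TGACGTCA, CACGTG and a p53 half-site pattern were also searched and were in 0 of the 11 windows. They were in 1.59%, 5.59% and 6.64% of all windows. These matches describe letters in the windows and were not set against any measurement of binding.

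Total counts ran from 5124863 to 6213676 per library, and between 5355 and 7809 rows had a count. A floor of 3 counts corresponds to between 0.435 and 0.716 CPM (counts scaled by library size after TMM, edgeR's trimmed mean of M-values). Rows of ribosomal RNA held 25.9% and 38.3% of counts on the High film and between 6.90% and 12.8% in the other 4, and all 3 such rows were lower in the pooled contrast (adjusted p between 0.0111 and 0.0278, edgeR's quasi-likelihood test). The summed level of 8 neural stem cell markers was 3313 to 3599 CPM in the High libraries and 4769 to 6504 CPM in the others, and at least 7 of the 8 were above the floor in every library. Vim alone held 2146 and 1980 CPM of the High sums. In the pooled contrast 6 of the 8 were higher and 2 lower, Hes1 (log2 fold change −0.82) and Fabp7 (−0.60), and 0 passed the adjusted threshold by edgeR. Of the markers of other cells, 8 neuron markers summed to 27.1 to 202 CPM, 6 astrocyte markers to 51.4 to 178 CPM, 8 oligodendrocyte lineage markers to 326 to 413 CPM in High and 556 to 748 CPM elsewhere, 9 microglia markers to between 0 and 7.10 CPM, and 10 meningeal and vascular markers to between 0 and 401 CPM. The 401 CPM was in Medium replicate 2, where Col1a1 had 2005 counts. Medium replicate 1 was at 0, and the next highest library, High replicate 2, was at 137 CPM. The neuronal Rbfox3 and Syt1, the astrocytic Aqp4 and Aldh1l1, and 7 of the microglia markers were at 0 in every library. Other neuron markers were detected. Tubb3 was read only on the Low film (96 and 72 counts). Map2 reached 138 and 20 counts on Low, 6 in Medium replicate 2 and 0 elsewhere. Gap43 had 1157 and 658 counts on Low, against 277 and 77 on High and 157 and 889 on Medium. Stmn2 (60 counts, High replicate 1) and Snap25 (52 counts, High replicate 2) were at 0 elsewhere. Of the 3 neuron markers tested, 0 passed the adjusted threshold in the pooled contrast by edgeR. The part of these differences in the values of the BCL2 family was not tested, and in RNA from whole cultures fewer cells of a type and less RNA per cell cannot be told apart. Nothing in the labels states that the 2 libraries of a film came from separate cultures, so the p-values measure the spread between these samples, which may be technical.

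Bbc3, Bax and Mcl1 were the most abundant members, and Bcl2 and Bcl2l11 were not detected. The mean level over the 6 libraries was 286 CPM for Bbc3, 126 CPM for Bax, 119 CPM for Mcl1, 54.9 CPM for Bcl2l1, 46.4 CPM for Bak1 and 29.6 CPM for Bad, which placed Bbc3 above 92.4% and Bad above 42.3% of the rows tested. Because QuantSeq counts reads at the 3′ end of a transcript, counts do not grow with transcript length, and this order was read without a length correction. Bax and Mcl1 lay close together, and their order changed between libraries. The 10 genes together held 4924 and 2337 counts on the High film, 5410 and 2861 on the Medium film, and 3663 and 3047 on the Low film, so the total differed more within High and Medium than between the 3 films on average.

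Not one of the 6 members tested passed the adjusted threshold of 0.05 in any of the 4 comparisons by edgeR, and 0 had an unadjusted p under 0.05. Of all 7729 rows tested, 0.129% were called in the pooled contrast, 0.0518% for Low against High, 0.0129% for Medium against High and 0% for Low against Medium. At an unadjusted p under 0.05 the shares of all rows were 5.5%, 4.27%, 4.04% and 1.51%, in the same order. DESeq2 and limma-voom also called 0 members. By limma-voom 0 members had an unadjusted p under 0.05 and by DESeq2 1 did, Mcl1 for Low against Medium (adjusted p = 0.281). The Low and the Medium comparison with High share the High libraries and are not independent of each other. The standard errors were wide, with a common biological coefficient of variation of 1.43, and the following values are given with that spread.

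**Figure D1:**
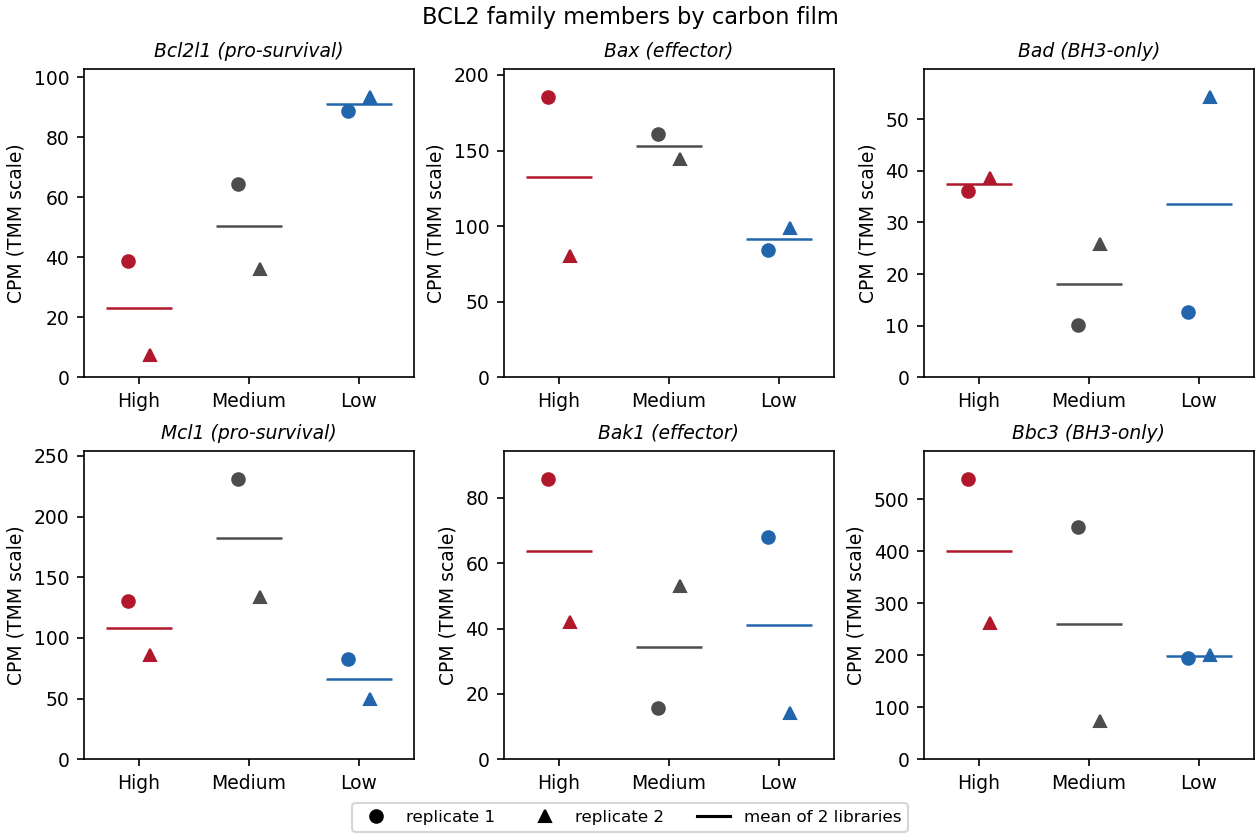
TMM-scaled CPM (y axis, linear from 0, a scale of its own in each panel) of the 6 members that were tested, on the High, Medium and Low films (x axis). Circles are replicate 1, triangles replicate 2 and lines the mean of 2 libraries. The Low libraries of Bcl2l1 stand above the other 4, those of Mcl1 stand below the other 4, and the 2 Medium libraries of Bbc3 stand 6.06-fold apart.

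Among the pro-survival members, Bcl2l1, which encodes BCL-XL, was lowest on the High film and highest on the Low film. It had 38.7 and 7.63 CPM in High, 64.4 and 36.2 CPM in Medium, and 88.8 and 93.3 CPM in Low. Both Low libraries lay above the other 4, whereas one Medium library lay just under the higher High library. The 2 High libraries differed 5.07-fold, from 188 and 32 counts, and the Low libraries 1.05-fold. The group means were 23.2 ± 22 CPM in High, 50.3 ± 19.9 CPM in Medium and 91.1 ± 3.19 CPM in Low (SD, n = 2). The log2 fold change of Bcl2l1 was 1.54 in the pooled contrast (SE 1.31, adjusted p = 0.891, edgeR), 1.97 for Low against High (SE 1.46, adjusted p = 0.941) and 1.12 for Medium against High (SE 1.42, adjusted p = 1). The 95% interval for Low against High ran from −1.28 to 5.22 and takes in no change as well as large changes. Without High replicate 1 the value in the pooled contrast was 3.15, and without High replicate 2 it was 0.80. In the rat annotation a ribosomal protein pseudogene, Rps2-ps43, lies within Bcl2l1, and because the authors counted reads with several alignments, the part of such reads in the Bcl2l1 counts cannot be told apart.

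Mcl1, a short-lived pro-survival protein, was highest on the Medium film and lowest on the Low film. Its levels were 130 and 86.1 CPM in High, 231 and 134 CPM in Medium, and 82.3 and 49.5 CPM in Low. Both Medium libraries lay above both High libraries, one of them by a small margin, and both Low libraries lay below them. The replicates of a film differed 1.51 to 1.73-fold, and no other member had so small a spread in its most variable film. Group means were 108 ± 31.3 CPM, 182 ± 68.7 CPM and 65.9 ± 23.2 CPM (SD, n = 2) for High, Medium and Low. Low against Medium gave the smallest p of any member in any comparison by edgeR, with a log2 fold change of −1.47 (SE 0.75, 95% interval −3.13 to 0.20, unadjusted p = 0.0779, adjusted p = 1). Medium against High gave 0.75 (SE 0.74) and Low against High −0.72 (SE 0.74), so the pooled contrast gave 0.02, and −0.03 with DESeq2. The pooled value averages a higher and a lower film and describes neither.

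Bcl2, the founding member of the family, had 0 counts in all 6 libraries. A count of 0 allows at most 3 counts, or between 0.435 and 0.716 CPM in a library, for counting error only. RNA whose 3′ end lies outside the annotated end would not be counted, so a value of 0 says only that no read was assigned to the row.

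Of the effectors, which form the pores, Bax was the more abundant. It had 185 and 80.2 CPM in High, 161 and 145 CPM in Medium, and 84.2 and 98.9 CPM in Low. The High libraries spanned all of the Low values, and the Medium libraries lay above both Low libraries. Low against Medium had a log2 fold change of −0.74 (SE 0.71, adjusted p = 1, edgeR), and the pooled contrast −0.17 (SE 0.61, 95% interval −1.52 to 1.19), which turned to 0.19 with library sizes alone as the scaling. The iron storage gene Ftl1 lies next to Bax in the annotation.

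Bak1, which encodes BAK, varied more between libraries of a film than between films. Its levels were 85.7 and 42.0 CPM in High, 15.6 and 53 CPM in Medium, and 67.9 and 14.3 CPM in Low. The lowest and the second highest library were both on the Low film, and the replicates differed 3.39-fold in Medium and 4.76-fold in Low. The log2 fold change was −0.77 in the pooled contrast (SE 1.39, 95% interval −3.87 to 2.34, adjusted p = 1, edgeR). In the annotation Bak1 overlaps a long noncoding RNA, and the counts do not separate them.

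Of the BH3-only members, Bbc3, which encodes PUMA, was the most abundant in all 6 libraries. It had 538 and 261 CPM in High, 447 and 73.6 CPM in Medium, and 195 and 201 CPM in Low. Both Low libraries lay below both High libraries, and the Medium libraries lay on either side of the Low ones. The 2 Medium libraries differed 6.06-fold, against 2.06-fold in High and 1.03-fold in Low. Group means were 399.7 ± 196 CPM in High, 260 ± 264 CPM in Medium and 198 ± 4.62 CPM in Low (SD, n = 2). The log2 fold change was −0.82 in the pooled contrast (SE 0.59, adjusted p = 0.824, edgeR), −1.01 for Low against High (SE 0.71, adjusted p = 0.916) and −0.62 for Medium against High. Without Medium replicate 1, the Medium library in which Bbc3 was high, the value in the pooled contrast was −1.73 (unadjusted p = 0.000415, adjusted p = 0.0846), and without High replicate 1 it was −0.20.

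Bad, a BH3-only protein held in the cytosol while it is phosphorylated, had 36.1 and 38.6 CPM in High, 10.1 and 25.9 CPM in Medium, and 12.7 and 54.2 CPM in Low. The High libraries were nearly equal, and both Medium libraries lay below them, while the Low libraries lay one below and one above. The log2 fold change of Bad was −1.05 for Medium against High (SE 2.25, 95% interval −6.07 to 3.97) and −0.16 for Low against High (SE 2.23, and 0.24 with library sizes alone), with adjusted p = 1 for both by edgeR. Gpr137 and Plcb3 lie within 3000 bases of Bad in the annotation without overlapping it. Whether any of their reads were counted for Bad was not examined.

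The remaining BH3-only members were at 0 in at least 5 of the 6 libraries. Pmaip1, which encodes NOXA, had 176 counts (42.0 CPM) in High replicate 2 and none in any of the other 5. The High libraries thus disagreed on Pmaip1. Rows with 0 in one library of a film and at least 50 counts in the other were 14.8% for High, 21.8% for Medium and 14.7% for Low. These are shares of the 9566 rows with a count in any library. Bid, which caspase 8 cleaves to link death receptors to mitochondria, had 13 counts (2.13 CPM) in Medium replicate 2 and 0 elsewhere. Bcl2l11, which encodes BIM and overlaps Acoxl in the annotation, had 0 counts in all 6. None of Pmaip1, Bid and Bcl2l11 passed the filter on low counts, and no fold change is given for them.

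**Figure D2:**
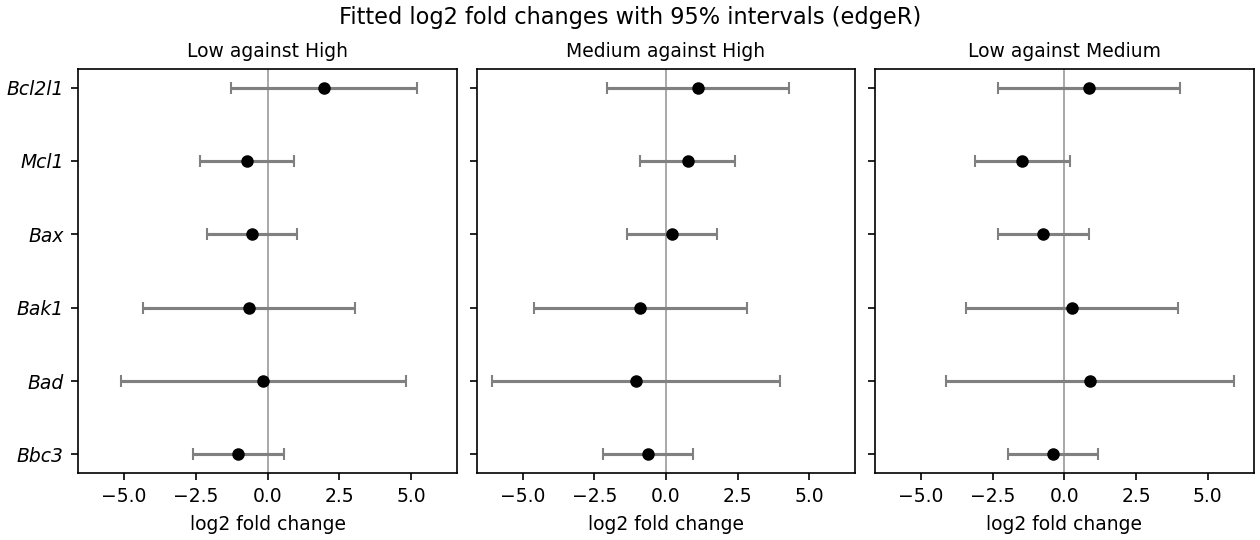
Fitted log2 fold changes (x axis) of the 6 members tested, for Low against High, Medium against High and Low against Medium, with points for the estimate and bars for the 95% interval from edgeR. Every interval crosses 0, and that of Mcl1 for Low against Medium, at −1.47, runs from −3.13 to 0.20.

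The order of libraries was compared with how often such an order was seen over all rows. In the pooled contrast, 0 of the 6 members had the other 4 libraries all above or all below both High libraries, against 18.2% of all rows tested. For Low against High, the libraries of 3 of the 6 did not overlap (Bcl2l1 above, Mcl1 and Bbc3 below), against 37.4% of all rows. For Medium against High they were 2 of the 6 (Mcl1 above, Bad below), against 34.8%, and for Low against Medium 3 of the 6 (Bcl2l1 above, Mcl1 and Bax below), against 29%. With 6 genes, these counts are near the shares of all rows. The median log2 fold change of the 6 members in the pooled contrast was −0.39, beside −0.12 over all rows tested, and the median size of the change over all rows was 0.97.

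As the balance between classes is what the family is known for, the members were also set against each other within each library, where scaling between libraries drops out. Pro-survival members made up 16.7% and 16.8% of the counts of the 10 genes on High (95% Wilson intervals 15.7% to 17.7% and 15.4% to 18.4%), 31.8% and 36.2% on Medium, and 32.2% and 27.9% on Low. All 4 Low and Medium libraries thus had a higher pro-survival share than both High libraries, at 32% ± 3.39 (SD, n = 4) against 16.7% ± 0.101 (SD, n = 2), a difference of 15.3 percentage points. The intervals cover counting error only, and reads without molecular identifiers are not independent molecules. BH3-only members held 56.6% and 61.3% on High, 49.2% and 21.7% on Medium, and 39.1% and 49.95% on Low, with no overlap between High and the rest. The class shares are parts of one sum, so this is not a separate result from the pro-survival share. Pmaip1 made up 7.53% of the member counts in High replicate 2. Among single rows tested, 18.2% had no overlap between High and the rest in CPM, and other gene sums were not examined. Effectors held between 19.0% and 42.1%, with the High libraries, at 26.7% and 21.9%, inside that range. No test is given for these shares, which were summed over genes chosen with results in view.

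The pro-survival share rested on Bcl2l1 and Mcl1 in different films. In Low, Bcl2l1 made up 16.7% and 18.2% of the member counts and Mcl1 15.5% and 9.68%, whereas in Medium Bcl2l1 made up 6.93% and 7.72% and Mcl1 24.9% and 28.5%. In High, Bcl2l1 made up 3.82% and 1.37% and Mcl1 12.9% and 15.4%. The 2 genes thus differed in opposite directions between the High libraries, and their sum varied less than either. With Bcl2l1 left out of the sum, the share was 13.4% and 15.7% on High, 26.7% and 30.9% on Medium, and 18.6% and 11.8% on Low, so that High and Low overlapped and the difference was 7.50 points. With Mcl1 left out the difference was 12 points, and with Bbc3, the largest single contributor in 5 of the 6 libraries, left out it was 16.7 points, both with no overlap. Leaving out Bcl2l1 or Bbc3 was chosen after seeing the data. Summed in CPM, the pro-survival level was 169 and 93.8 on High, 295 and 170 on Medium, and 171 and 143 on Low, so High overlapped the others on that scale.

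Ratios of single genes, from 6 pairs chosen after the values were seen, show the same libraries gene by gene. The ratio of Bax to Bcl2l1 counts was 4.78 and 10.5 on High, 2.5 and 3.99 on Medium, and 0.948 and 1.06 on Low. The 3 films did not overlap in this ratio, and Bax counts were nearly equal to Bcl2l1 counts on the Low film. Bbc3 to Bcl2l1 was 13.9 and 34.2 on High, 6.94 and 2.03 on Medium, and 2.19 and 2.16 on Low. High stood apart here, while Medium and Low overlapped. Set against Mcl1 the pattern was another, with Bax to Mcl1 at 1.42 and 0.931 on High, 0.697 and 1.08 on Medium, and 1.02 and 2.0 on Low, and Bbc3 to Mcl1 at 4.13 and 3.03, 1.93 and 0.551, and 2.37 and 4.06. Of these, Bax to Mcl1 overlapped between all films, and Bbc3 to Mcl1 was lower on Medium than on both other films. Bcl2l1 to Mcl1 was 0.297 and 0.0886 on High, 0.279 and 0.271 on Medium, and 1.08 and 1.88 on Low, and Bcl2l1 counts were above Mcl1 counts in the Low libraries alone. Bax to Bak1 ran from 1.24 to 10.3 with both extremes among the Low and Medium libraries.

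**Figure D3:**
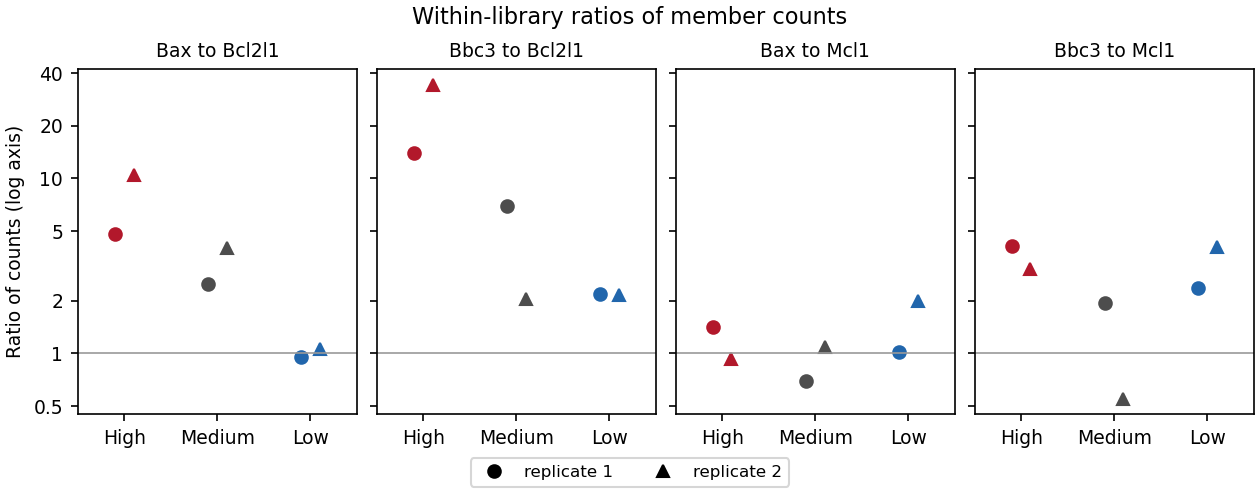
Ratio of counts within a library (y axis, log scale) for 4 pairs of members on the High, Medium and Low films (x axis), with circles for replicate 1 and triangles for replicate 2 and a line at a ratio of 1. Bax to Bcl2l1 is 4.78 and 10.5 on High and 0.948 and 1.06 on Low, while Bax to Mcl1 overlaps between films.

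The genes most like each member over the 6 libraries were found by Pearson's correlation of log2 CPM among 3668 rows above the floor in all libraries, as a description with no test. Bcl2l1 was most like Sox13, a transcription factor (r = 0.994), and Ccdc90b (r = 0.992), which were also lowest in High replicate 2 and highest in the Low libraries. Mcl1 was most like Pebp1 (r = 0.989), Bad like Angel2 (r = 0.995), and Bak1 like Rps2 (r = 0.991) and Lsm2 (r = 0.983). Bax was most like a repeated row of Rpl13 (r = 0.973) and Sf3a3 (r = 0.962), and Bbc3 like Reps1 (r = 0.975) and Pgrmc1 (r = 0.968). Over 6 points that share libraries and depth, between 3 and 16 rows for each member had r above 0.95. Among the 6 members themselves the 15 pairs ranged from −0.65 (Mcl1 and Bad) to 0.73 (Mcl1 and Bax), and no order of libraries was common to all 6.

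The other genes of the pathway were taken from 8 lists, of 81 genes in the tables, of which 55 were tested. In the pooled contrast, 23 of the 55 had a higher value, beside 45.9% of all rows, and 32 a lower one, 0 passed the adjusted threshold by edgeR, and 9 had an unadjusted p under 0.05, 4 higher and 5 lower, beside 5.5% of all rows. The medians given for these lists are to be read against that of all rows, −0.12, which library sizes alone as the scaling moved to 0.26, a shift larger than several of them. Of 13 other BCL2 family genes, 8 had no count in any library (Hrk, Bcl2l15, Bmf, Bcl2l13, Bcl2l14, Bik, Bcl2l10 and Bcl2a1), and of the 5 tested 1 was higher and 4 were lower, with a median log2 fold change of −0.30. Of these 5, Bcl2l2, a pro-survival gene that encodes BCL-W, had 110 and 0 counts in High, 0 and 0 counts in Medium, and 189 and 13 counts in Low, which shows no order by film.

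The lists of apoptosome and caspase genes and of mitochondrial release factors and channels were split. Of 8 apoptosome and caspase genes tested, 4 were higher and 4 lower (median 0.09). Cycs, which encodes cytochrome c, had 679 and 520 counts in High, 1722 and 1137 counts in Medium, and 1099 and 920 counts in Low, with a log2 fold change of 0.56 (adjusted p = 0.888). In CPM all 4 Low and Medium libraries were above High for Cycs. Of 9 mitochondrial release factor and channel genes tested, 5 were higher and 4 lower (median 0.85). Slc25a4, the adenine nucleotide carrier of the inner membrane, had 601 and 695 CPM in High, 1027 and 1240 CPM in Medium, and 1383 and 1341 CPM in Low, and a log2 fold change of 0.94 (SE 0.22, unadjusted p = 0.00172, adjusted p = 0.332). It lay above High in all 4 other libraries and did not pass the adjusted threshold. Diablo, which encodes the IAP antagonist SMAC, had a value of −1.05 (adjusted p = 0.873), with 51 and 1012 counts in the Medium libraries, and Aifm1, which encodes apoptosis-inducing factor, a value of 3.01 (adjusted p = 0.803), with 81 and 0 counts in High and 286 to 524 elsewhere.

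Among 3 inhibitor of apoptosis genes tested, Birc5, which encodes survivin and is also a cell division gene, had 150 and 129 CPM in High, 309 and 738 CPM in Medium, and 511 and 290 CPM in Low. Its log2 fold change was 1.72 (SE 0.45, unadjusted p = 0.00321, adjusted p = 0.468, edgeR), with all 4 Low and Medium libraries above High, while Birc6 and Birc2 had lower values. Xiap and Birc3 had no count. Of 5 death receptor genes tested, 2 were higher and 3 lower (median −0.07), and Faslg, named after its values were seen, had 39 and 59 counts in High and 0 in the other 4 libraries. Fitted changes of rows at 0 in a group, such as that of Faslg, depend on the prior count and are not given.

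Upstream of the family, values went both ways. Of 7 genes tested in the list of transcription factors, which also held Mdm2, 3 were higher and 4 lower (median −0.38). Mdm2, which encodes a ubiquitin ligase, had 458 and 365 CPM in High, 250 and 121 CPM in Medium, and 197 and 310.0 CPM in Low, with a log2 fold change of −0.93 (SE 0.40, unadjusted p = 0.0423, adjusted p = 0.801, edgeR). Ddit3, the CHOP factor of endoplasmic reticulum stress, had 238 and 301 CPM in High, 3.6 and 92.7 CPM in Medium, and 113 and 166 CPM in Low, with a value of −1.71 (unadjusted p = 0.0808, adjusted p = 0.801). For Mdm2 and Ddit3 all 4 Low and Medium libraries lay below High. Of 14 genes for holders and kinases of BAD and BIM, 6 were higher and 8 lower (median −0.37). Ywhaq, an adaptor that can hold phosphorylated BAD, had a value of 1.01 (unadjusted p = 0.00558, adjusted p = 0.531), whereas the kinase gene Mapk3 had a lower one (−1.17, adjusted p = 1). The other Ywha genes of the list went both ways. Ywhae, below High in all 4 Low and Medium libraries, had −0.58 (unadjusted p = 0.0177, adjusted p = 0.778, edgeR) and Ywhag −0.67. Ywhah had 0.75, Ywhab 0.29 and Ywhaz 0.24. Of 4 genes for the turnover of MCL1, 1 was higher and 3 were lower (median −0.74), all with libraries that overlapped between High and the rest.

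**Figure D4:**
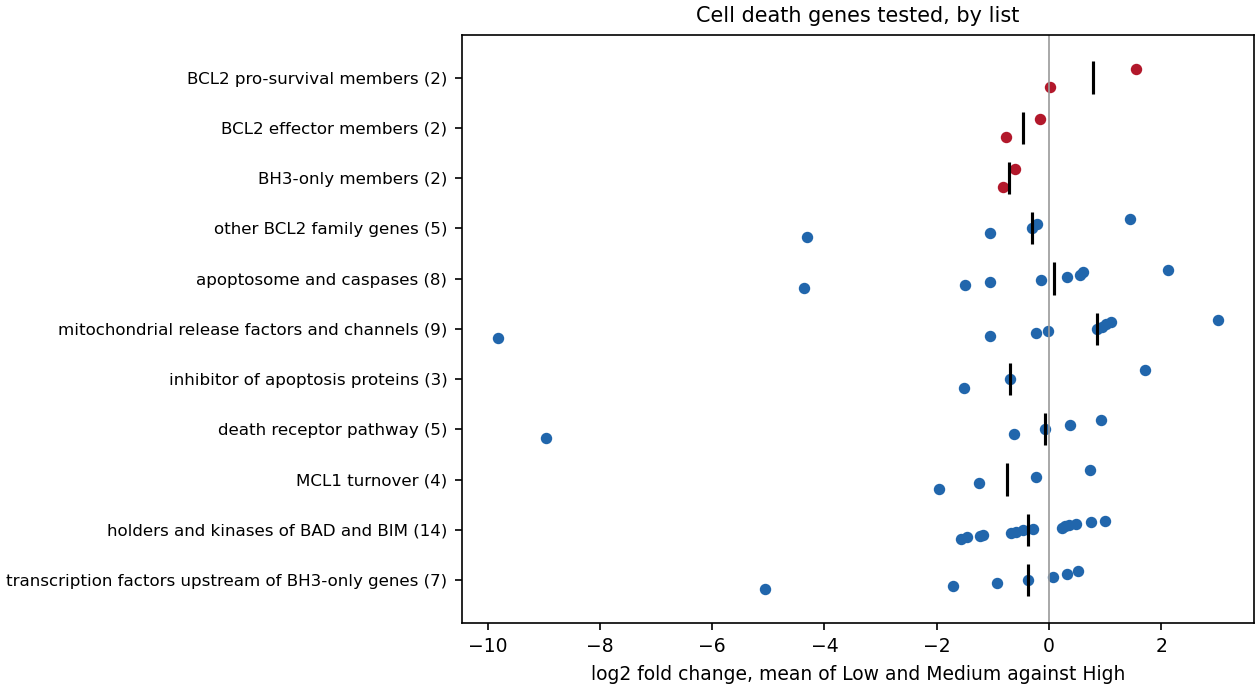
Fitted log2 fold change in the pooled contrast (x axis) of each gene tested in the 3 member classes (red) and 8 other cell death lists (blue), with black bars for the list medians and the number tested in parentheses. Points beyond −8 are genes with 0 counts in all Low and Medium libraries, whose fitted values depend on the prior count. Medians lie between −0.74 (MCL1 turnover) and 0.85 (mitochondrial release factors and channels), and no point passed the adjusted threshold.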

How the data were processed

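The authors isolated total RNA, made QuantSeq 3′ mRNA libraries, sequenced single-end reads of 75 bases, aligned them with Bowtie2 and tallied uniquely and multiply aligned reads over each gene with Bedtools (rn6 in the submitters' processing notes; annotation and duplicate removal not given in the sources used here). The deposited values are raw counts in whole numbers, a table of 17048 rows for each library with 16881 symbols. Of these, 167 rows repeat a symbol and were kept apart. Labels and methods name different RNA isolation reagents (Trizol and Ribospin).

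Rows were filtered with filterByExpr (7729 kept), scaled by TMM and tested with edgeR 4.0.16 in R 4.3.3 (quasi-likelihood test, 1 mean per film, all 6 libraries, Benjamini-Hochberg adjustment over all rows tested, threshold 0.05). Residual degrees of freedom were 3 and prior degrees of freedom 6.96. An exact two-sided permutation test of 1 gene cannot go below p = 0.133 with 4 libraries against 2, or 0.333 with 2 against 2. CPM uses TMM-scaled library sizes. Alternatives were DESeq2 1.42.0, limma-voom (limma 3.58.1), other scalings and filters, a replicate block and leaving out each library. The steps were tested on simulated counts.

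Films and replicate numbers come from the sample titles. The members and lists were chosen with earlier results of these data known. All 10 members are named. Of the other lists, the text names genes with an adjusted p under 0.05 and up to 3 per list with the largest change among genes with a mean log2 CPM of at least 4 whose other 4 libraries are all above or all below High, and for each member its 2 most correlated rows. Some genes that this rule names are not reported here. Others were named after their values were seen. Of the marker lists, this rule also names Sox9 (log2 fold change 0.97, adjusted p = 0.517), Sox2 (1.24, adjusted p = 0.212), Nes (1.64, adjusted p = 0.468), Olig2 (0.97, adjusted p = 0.778) and Acta2 (277 and 423 counts in High, 0 to 120 elsewhere, adjusted p = 0.801), in the pooled contrast. Gene neighbours within 3000 bases and promoter windows come from RefSeq, on another build than the counts. Protein sequences were not used here.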

Additional observations from a re-analysis of the deposited data

Results flagged for a closer look

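Mcl1 was flagged because the 2 films moved in opposite directions against High in every library. Both Medium libraries (231 and 134 CPM) lay above both High libraries (130 and 86.1 CPM), and both Low libraries (82.3 and 49.5 CPM) lay below them. The test of this difference, Low against Medium, gave a log2 fold change of −1.47 (SE 0.75, unadjusted p = 0.0779, adjusted p = 1, edgeR) and did not pass the threshold. Of the 7729 rows tested, 51 (0.66%) had this order of libraries, and 52 (0.673%) had the opposite one. One Medium library exceeded the higher High library by a small margin (134 against 130 CPM), and the comparisons share the High libraries.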

How the results depend on the processing

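In all 16 alternatives and all 4 comparisons, 0 of the 6 members tested were called. Of 384 fold changes of members under the alternatives, 362 kept their direction, 22 reversed and 0 passed the threshold. With 2 libraries per film and replicates that often differed several-fold, changes of the size seen for Bcl2l1 and Bbc3 were not resolved, and a value of 0 says only that no read was assigned to the row.

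The number of rows called over the whole table moved with the settings. In the pooled contrast it was 10, and 68 with no filter, 56 with a mean of at least 10 counts, 57 with the replicate block, 19 with only the groups compared, 23 with limma-voom and 375 with DESeq2. For Low against High it was 4, and 0 with library sizes alone, 34 with no filter, 30 with a mean of at least 10 counts, 30 with the block, 16 with limma-voom and 300 with DESeq2. For Medium against High it was 1, and 0, 48, 40, 39, 14 and 307 in the same order. For Low against Medium it was 0, and 5 with no filter and 116 with DESeq2. Leaving out 1 library gave 34 to 242, 19 to 65, 11 to 275 and 0 to 194 rows for the 4 comparisons, with the highest counts without Medium replicate 2, except for Low against High (without Low replicate 2). The cause was not tested.

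Over all rows tested, same-numbered libraries did not deviate together (correlations 0.00333, −0.000345 and 0.0122). The labels do not state whether the numbers pair the samples. With 2 libraries per film these correlations cannot decide it. With the replicate block 0 members were called. Reversed values in the pooled contrast were Mcl1 at −0.0266 with RLE size factors, −0.0018 with the replicate block, −0.0155 with limma-voom and −0.0268 with DESeq2, and Bax at 0.19 with library sizes alone. That scaling moved the median of all rows from −0.12 to 0.26, and it set Bad at 0.24 for Low against High. For Low against Medium, Bak1 was −0.0900 and Bbc3 0.0864 with the block, and Bbc3 0.15 with limma-voom.

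Leaving out 1 library, the ranges that crossed 0 were −0.25 to 0.35 (Mcl1) and −0.65 to 0.56 (Bax) in the pooled contrast, −1.02 to 0.19 (Bax), −2.16 to 0.0908 (Bak1) and −1.55 to 0.54 (Bad) for Low against High, −0.28 to 0.93 (Bax) and −2.44 to 0.13 (Bbc3) for Medium against High, and −1.27 to 1.43 (Bak1), −0.50 to 1.74 (Bad) and −1.15 to 1.43 (Bbc3) for Low against Medium. The pro-survival difference of 15.3 percentage points was 12 with Mcl1 left out, 7.50 with Bcl2l1 left out and 13.9 to 16.7 with 1 library left out. The count of members whose other 4 libraries were all above or all below High, recomputed after seeing the data, was 0, and 1 with library sizes alone (Bcl2l1 above) and 0 to 3 with 1 library left out, where the 3 were Bax, Bak1 and Bbc3 below, without High replicate 2.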
